A study of Mus musculus with 4 samples.

Results

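Neurotrophins and insulin-like growth factor 1 are secreted survival and growth factors, and the 8 genes described here encode a set of these ligands with their receptors. They were chosen by symbol, with earlier results of these data known: the ligands Bdnf, Ntf3 and Igf1, the receptors Ntrk2, Ntrk3, Igf1r and Ngfr, and the sorting receptor Sort1, out of 34968 gene symbols listed in every library. Their abundance was measured by bulk RNA-seq in tdTomato+ neurons sorted on day 12 of differentiation from mouse embryonic stem (ES) cells, with 2 libraries from each of 2 lines.

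The N/D line makes Nkx2-1 and Dlx2, transcription factors of the medial ganglionic eminence (MGE) and of GABAergic neurons, and the N/D/S line makes V5-tagged St18, a zinc finger factor of the Myt1 family, in addition. Both lines were derived from the same Dlx6-Cre; Ai9 parental ES cells of the C57/BL6 strain, in which Cre marks subpallial neurons with tdTomato, and both grew as embryoid bodies with the Wnt inhibitor XAV-939 and the hedgehog agonist SAG. Nkx2-1 was driven by a Nestin promoter together with a tetracycline transactivator, which in turn drove Dlx2 or Dlx2 with St18. The lines were picked as drug-selected clones, the number of clones behind each is not given in the sources used here, and the labels do not say whether the replicates were separate differentiations. The p-values therefore measure the spread between these libraries, which may be technical.

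BDNF signals through the receptor tyrosine kinase TrkB, the product of Ntrk2, and neurotrophin-3, the product of Ntf3, through TrkC, the product of Ntrk3. Ngfr encodes the shared neurotrophin receptor of the tumour necrosis factor receptor family, which binds proneurotrophins together with sortilin, the product of Sort1. Cortical interneurons depend on TrkB as they mature, and Ngfr is a classical marker of cholinergic neurons of the basal forebrain, which also arise in the MGE. IGF1 binds the receptor tyrosine kinase encoded by Igf1r and supports neuronal growth and survival.

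Values are TPM, a share of all transcripts in a library that the authors corrected for transcript length, so that levels can be compared between genes within a library. Library names below are those of the labels. In the deposited values St18, the factor added in N/D/S, did not separate the lines. It was at 28.5 and 26.6 TPM under the label N/D, replicate 1 and 2. Under the label N/D/S it was at 44.4 and 15.9 TPM, so every direction given below rests on the labels. The library labelled N/D replicate 1 also stood apart from the rest. Among 6139 genes at 10 TPM or more in every other library, 1091 (17.8%) had less than 1 TPM there, and the shares found in this way were 0% for N/D replicate 2 and, for N/D/S, 0.065% for replicate 1 and 0.115% for replicate 2. The depth of the libraries is unknown, since TPM keep no read counts.

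The question for these genes was whether induction of St18 came with a different supply of neurotrophic ligands or receptors. None of the 8 genes separated the lines: for each of them the ranges of the 2 N/D and the 2 N/D/S libraries overlapped. Such overlap was the rule: of all 12975 genes tested, both N/D/S libraries were above both N/D libraries for 8.69% and below both for 8.23%. The 3 ligands had at most 1.78 TPM in any library. Ntrk2 and Sort1 had the highest means over the 4 libraries, 15.9 and 12.3 TPM. Ntrk2 and Ntrk3 were near 0 in N/D replicate 1, at 0.142 and 0.132 TPM, whereas Ngfr, Sort1 and Igf1r were not.

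**Figure D1:**
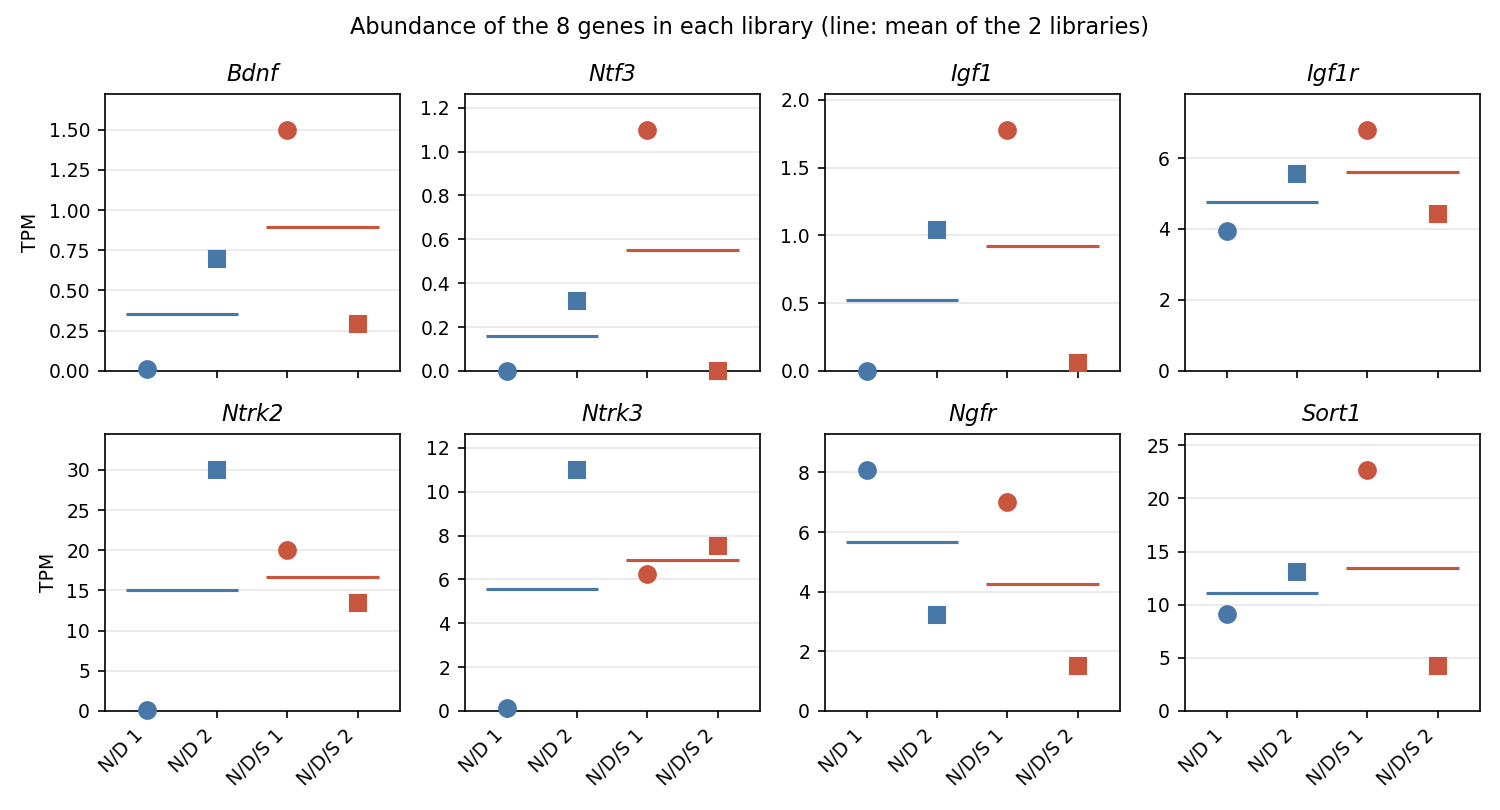
TPM of each of the 8 genes (vertical axis, from 0, a scale of its own in each panel) in each library (horizontal axis), with N/D in blue, N/D/S in red, circles for replicate 1, squares for replicate 2 and a line at the mean of each line's 2 libraries. In each panel the libraries of the lines overlap, and Ntrk2 and Ntrk3 lie near 0 in N/D replicate 1 (0.142 and 0.132 TPM).

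Among the ligands, Bdnf, on the plus strand of chromosome 2 of GRCm38 (GENCODE M21) from 109674700 to 109727007, had 0.00889 and 0.696 TPM in N/D replicate 1 and 2 and 1.5 and 0.291 TPM in N/D/S replicate 1 and 2. The highest and lowest of these values fell in different lines, with the others between them. Reads of the antisense gene Gm45346, whose exons overlap those of Bdnf, cannot be told apart from those of Bdnf without strand. Ntf3, on the minus strand of chromosome 6 from 126101412 to 126166910, was listed at 0 in N/D replicate 1 and in N/D/S replicate 2 and had 0.318 TPM in N/D replicate 2 and 1.1 TPM in N/D/S replicate 1. Each line thus held a library with Ntf3 at 0. Bdnf and Ntf3 did not reach 1 TPM in 2 libraries and were left out of the test across genes. With no filter on low values, their log2 fold changes (N/D/S relative to N/D, here and below, on the log2(TPM + 1) scale) were 0.46 (standard error 0.53) and 0.34 (standard error 0.50), each at an adjusted p of 1 (limma, Benjamini-Hochberg).

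Igf1, on the plus strand of chromosome 10 from 87858265 to 87937042, was listed at 0 in N/D replicate 1 and had 1.04 TPM in N/D replicate 2, and the N/D/S libraries had 1.78 and 0.0591 TPM in replicate order. Each line had a library above 1 TPM and a library near 0. Its log2 fold change was 0.27 (standard error 1.06, 95% interval −2.24 to 2.77, limma, Benjamini-Hochberg adjusted p = 1 over 12975 genes). The same order of libraries, N/D/S replicate 1 highest, then N/D replicate 2, was found for Bdnf, Ntf3 and Igf1.

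By ratio, the receptors Ntrk2 and Ngfr differed most from each other in N/D replicate 1, where Ntrk2 was near 0 and Ngfr was at its highest. The 250 bases before their annotated starts are shown because these genes ordered the libraries differently, as RefSeq gives them on GRCm38.p6 and read on each gene's own strand. Capitals mark matches, on either strand, to short motifs of the induced factors: AAAGTTT for the Myt1 family, TAATT for Dlx homeodomains and CACTTG for Nkx2-1. The Ntrk2 window is chr13:58806319-58806568 on the plus strand and the Ngfr window chr11:95587699-95587948 on the minus strand.
Ntrk2: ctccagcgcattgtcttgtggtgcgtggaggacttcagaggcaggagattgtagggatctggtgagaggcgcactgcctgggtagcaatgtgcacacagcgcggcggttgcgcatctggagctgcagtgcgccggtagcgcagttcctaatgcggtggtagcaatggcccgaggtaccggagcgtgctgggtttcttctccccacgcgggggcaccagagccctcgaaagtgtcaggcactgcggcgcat
Ngfr: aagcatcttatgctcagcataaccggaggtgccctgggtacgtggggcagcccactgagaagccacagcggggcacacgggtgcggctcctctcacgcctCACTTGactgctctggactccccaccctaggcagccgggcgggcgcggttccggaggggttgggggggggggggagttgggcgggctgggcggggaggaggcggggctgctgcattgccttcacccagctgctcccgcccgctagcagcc

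The Ngfr window held CACTTG once, starting 150 bases before the RefSeq start, and was 70.4% G or C with 16 CG dinucleotides. GENCODE M21 puts the start of Ngfr at 95587735, inside this window. The Ntrk2 window held none of these letters in a row and was 62.8% G or C with 19 CG dinucleotides. Of the 13 start sites that the table gives for 6 of the 8 genes, 0 had AAAGTTT, 3 had TAATT (all among the 7 of Bdnf) and 2 had CACTTG (Ngfr and a start of Ntf3). No matches overlapped. Over the 32851 windows of this length that were counted, 4.2% held AAAGTTT, 25% held TAATT and 11.6% held CACTTG. That count leaves out a chromosome that holds none of the 8 genes. These are matches of letters, and binding was not measured.

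Ntrk2 lies on the plus strand of chromosome 13 from 58806569 to 59133970. It had 0.142 TPM in the first N/D library and 30.0 TPM in the second, and N/D/S had 20.0 TPM in the first and 13.4 TPM in the second. The N/D libraries, the highest and the lowest of all, enclosed both N/D/S libraries and differed by 211-fold, whereas the N/D/S libraries differed by 1.49-fold. The log2 fold change was 1.55 (standard error 1.6, 95% interval −2.22 to 5.32, limma, Benjamini-Hochberg adjusted p = 1). Its residual standard deviation between libraries of a line was 2.40 log2 units, larger than the difference and above that of 93.3% of the genes tested. With N/D replicate 1 left out the log2 fold change was −0.83 (adjusted p = 1), and with N/D replicate 2 left out it was 3.93 (adjusted p = 0.00693, both by limma and Benjamini-Hochberg). The sign and the call for Ntrk2 thus changed with which N/D library was kept, under a fit in which the lone N/D library is assumed to vary like the N/D/S libraries. Leaving out N/D replicate 2 put 2213 genes past the threshold as higher and 160 as lower. TPM per symbol do not say which of the 10 annotated transcripts of Ntrk2, from 356 to 8744 bases, gave these values, so the kinase-bearing and truncated forms of TrkB are not resolved.

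Ntrk3, on the minus strand of chromosome 7 from 78175959 to 78738012, had 0.132 and 11 TPM in N/D replicate 1 and 2 and 6.26 and 7.51 TPM in N/D/S replicate 1 and 2. As for Ntrk2, the N/D libraries lay on either side of the N/D/S libraries. The log2 fold change was 1.09 (standard error 1.32, 95% interval −2.02 to 4.21, limma, Benjamini-Hochberg adjusted p = 1) and was −0.61 with N/D replicate 1 left out and 2.80 with N/D replicate 2 left out. Ntrk2 was higher than Ntrk3 in each library, by 1.08-fold and 2.73-fold in N/D replicate 1 and 2 and by 3.2-fold and 1.79-fold in N/D/S replicate 1 and 2, so that the ratios of the lines overlapped.

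Low values in that library were common. At least 8-fold less in N/D replicate 1 than in N/D replicate 2 was found for 3 of the 6 tested members (Ntrk2, Ntrk3 and Igf1) and for 43.5% of all genes tested. It was the lowest of the 4 libraries for 4 of the 6 tested members, which adds Igf1r, and for 56.3% of all genes tested.

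Ngfr, on the minus strand of chromosome 11 from 95568818 to 95587735, had 8.09 and 3.23 TPM in N/D replicate 1 and 2 and 7.01 and 1.51 TPM in N/D/S replicate 1 and 2. It was the only one of the 8 genes whose highest value was that of N/D replicate 1. The spread within a line, 4.63-fold between the N/D/S libraries, was larger than the difference between the lines, a log2 fold change of −0.47 (standard error 1.09, 95% interval −3.05 to 2.12, limma, Benjamini-Hochberg adjusted p = 1). Its direction was that of N/D over N/D/S with all libraries and reversed to 0.09 without N/D replicate 1 and to 0.37 when the second N/D/S library was left out. Ntrk2 was 9.31-fold above Ngfr in N/D replicate 2 and, for N/D/S, 2.86-fold in replicate 1 and 8.87-fold in replicate 2, but in N/D replicate 1 the ratio of Ntrk2 to Ngfr was 0.0176. The 2 N/D libraries therefore gave opposite orders of the Trk receptor and the shared receptor.

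Sort1, on the plus strand of chromosome 3 from 108284082 to 108361511, had 9.09 and 13.1 TPM in N/D replicate 1 and 2 and 22.7 and 4.24 TPM in N/D/S replicate 1 and 2. Here both N/D libraries fell between the N/D/S libraries, which differed by 5.36-fold. The log2 fold change was −0.10 (standard error 1.12, 95% interval −2.75 to 2.56, limma, Benjamini-Hochberg adjusted p = 1), although the mean TPM of N/D/S, 13.5 ± 13.1 (SD, n = 2), was above that of N/D, 11.1 ± 2.83 (SD, n = 2). It was −1.19 when the first N/D/S library was left out and 0.99 when the second was. Exons of the antisense gene Gm12523 overlap those of Sort1. Sort1 was above Ngfr, its partner in proneurotrophin binding, in all 4 libraries, from 1.12-fold in N/D replicate 1 to 4.06-fold in N/D replicate 2.

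Igf1r, on the plus strand of chromosome 7 from 67952827 to 68233668, was the steadiest of the 8 genes. It had 3.95 and 5.56 TPM in N/D replicate 1 and 2 and 6.8 and 4.42 TPM in N/D/S replicate 1 and 2, a range of 1.72-fold over the 4 libraries. Its residual standard deviation was 0.33 log2 units, below that of most genes tested (percentile 8.79). The log2 fold change was 0.19 (standard error 0.97, 95% interval −2.10 to 2.48, limma, Benjamini-Hochberg adjusted p = 1). The width of that interval comes from the spread that limma shares among all genes, and with no filter on low values the standard error was 0.30.

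**Figure D2:**
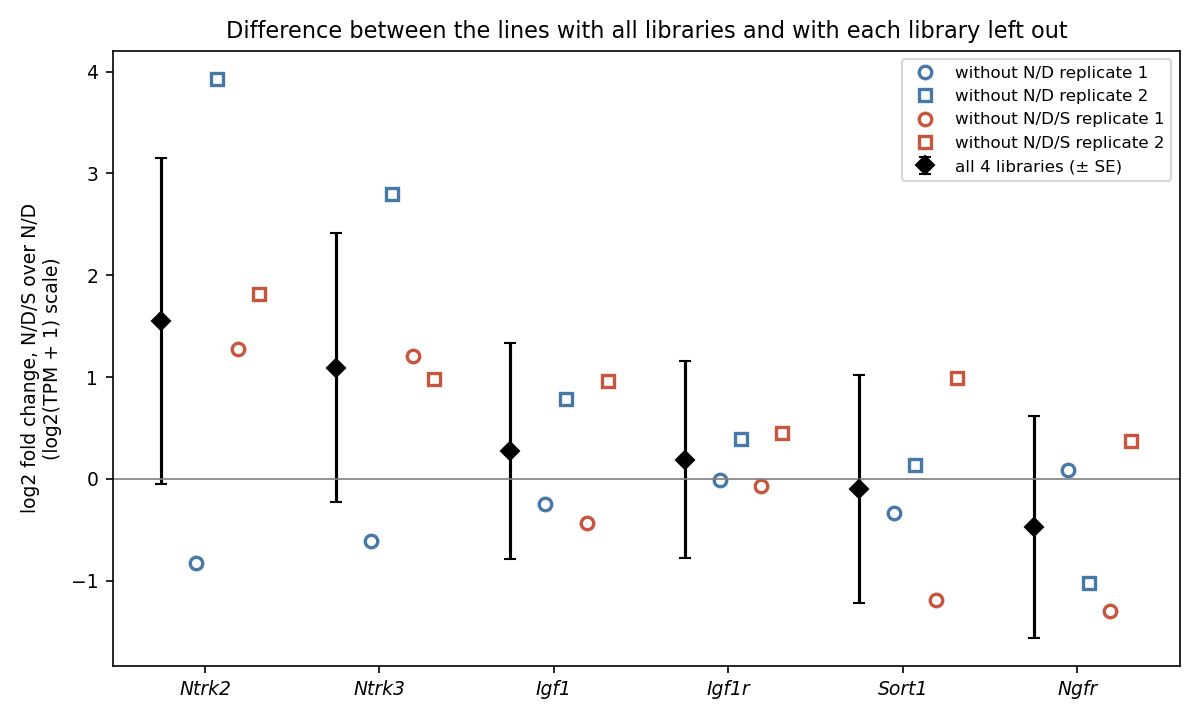
Log2 fold change (N/D/S relative to N/D) on the log2(TPM + 1) scale (vertical axis) for the 6 tested genes (horizontal axis), with black diamonds for all 4 libraries with their standard error and open symbols for the value with a library left out. Ntrk2 runs from −0.83 without N/D replicate 1 to 3.93 without N/D replicate 2, and each of the 6 genes has open symbols on both sides of 0.

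Over the 6 tested members, 0 were past an adjusted p of 0.05 in either direction, as were 0% of all 12975 genes tested by limma. These zeros do not show that the genes did not differ, since the 95% intervals of the members reach beyond 2 log2 units on both sides of 0. At an unadjusted p under 0.05 there were again 0 members, against 8 genes or 0.0617% of all genes tested. Both N/D/S libraries were above both N/D libraries for 0 members and 8.69% of all genes tested, and below both for 0 members and 8.23%. Their median log2 fold change was 0.23, beside 0.26 for all genes tested. Quantile normalization brought the median of all genes tested to −0.05 and turned the sign of Igf1 (−0.05), Ntrk3 (−0.01) and Igf1r (−0.54). Relative to the median of all genes tested, Igf1r was at −0.07 as deposited and −0.50 after quantile normalization, Ntrk2 at 1.29 and 0.43, and Ngfr at −0.73 and −0.92. Within replicate number 1 the library labelled N/D/S was higher, and within replicate number 2 lower, for 5 of the 6 tested members and 56.6% of all genes tested. The exception was Ngfr, lower in the N/D/S library within both numbers, with log2 differences of −0.18 and −0.75, as were 17.9% of all genes tested. An exact two-sided permutation test of 2 libraries against 2 cannot give a p below 0.333.

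In the order of mean TPM over the 4 libraries, Ntrk2 (15.9) was followed by Sort1 (12.3), Ntrk3 (6.22), Igf1r (5.18), Ngfr (4.96), Igf1 (0.72), Bdnf (0.625) and Ntf3 (0.355). The ranges over libraries overlapped for each of the 7 pairs of neighbours. Ntrk2 was above Sort1 in 2 of 4 libraries, Ntrk3 above Igf1r in 2, and Igf1r above Ngfr in 2, so these neighbours did not keep an order. Ngfr was above Igf1 in 4 of 4 libraries, the pair at which the order passes from the receptors and Sort1 to the ligands.

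The tested genes with the profile closest to Ntrk2 over the 4 libraries, by Euclidean distance in log2(TPM + 1), were Cbfa2t3 and Ccnb2, each at 0.29. Closest to Sort1 were Nbea and Zbtb14, each at 0.35, and closest to Ntrk3 were Gpx7 at 0.20 and Hsd11b2 at 0.21. A profile here is only 4 values. In N/D replicate 1 Cbfa2t3 had 0.0168 TPM, Ccnb2 0.0117 TPM, and Gpx7 and Hsd11b2 were listed at 0.

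The other genes of these pathways were read from lists of 108 genes, of which 107 were listed in the files and 89 were tested. None passed the adjusted threshold (0 higher and 0 lower), and 0 had an unadjusted p under 0.05 from limma. Their median log2 fold change was 0.37, beside 0.26 for all genes tested. Of the 89, 35 were under 1 TPM in N/D replicate 1 and 0 in N/D replicate 2, and in N/D/S the numbers were 0 and 13. Among all genes tested, 42.1% were under 1 TPM in N/D replicate 1. Since that library is part of the comparison, the sign of these 35 genes follows in part from the low value itself.

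Ntf5, the gene of neurotrophin-4, also stayed under 1 TPM, with 0 and 0.202 TPM in N/D replicate 1 and 2 and 0.0927 and 0.662 TPM in N/D/S replicate 1 and 2. Its values in the lines overlapped, as did those of Bdnf and Ntf3.

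Among the sorting receptors related to sortilin, Sorcs1 had 0 and 6.97 TPM in N/D and 6.22 and 2.3 TPM in N/D/S, in replicate order, and Sorcs3 had 0.033 and 6.45 TPM in N/D and 6.75 and 0.764 TPM in N/D/S. Sort1 was the only one of the 5 sortilin family members above 1 TPM in N/D replicate 1. Of the 10 proteases that can cleave proneurotrophins, 6 were tested. Plat, the tissue plasminogen activator, had 0.456 and 51.3 TPM in N/D and 45.8 and 13.7 TPM in N/D/S, with the same low library as Ntrk2. The prohormone convertases Pcsk2 (23.9 and 8.58 TPM in N/D, 15.6 and 11.9 TPM in N/D/S) and Pcsk7 (17.7 and 13.6 TPM in N/D, 17.6 and 9.48 TPM in N/D/S) were highest in N/D replicate 1.

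Partners of the shared receptor were among the most abundant genes of the lists. Maged1, an adaptor of its intracellular domain, had 639 and 1560 TPM in N/D and 1530 and 1260 TPM in N/D/S. Bex3, which binds the same domain, had 1100 and 1050 TPM in N/D and 911 and 1030 TPM in N/D/S. Arhgdia, a GDP dissociation inhibitor that binds the receptor, had 594 and 540 TPM in N/D and 644 and 694 TPM in N/D/S. Both N/D/S libraries were below both N/D libraries for Bex3 and above both for Arhgdia, with log2 fold changes of −0.15 (standard error 0.96) and 0.24 (standard error 0.95) that did not pass the test. In the pathway lists together both N/D/S libraries were above both N/D libraries for 7 of 89 genes tested and below both for 3, beside 8.69% and 8.23% of all genes tested. The 11 tested genes of that list had a median log2 fold change of 0.04.

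Of the 44 adaptors and effectors that carry Trk signals to Ras, phospholipase C and phosphoinositide 3-kinase, 43 were tested, 28 with a positive and 15 with a negative log2 fold change and a median of 0.64. Over all genes tested, 7967 of 12975 were positive and 5008 negative. In 15 of the 43 the value was under 1 TPM in N/D replicate 1. The most abundant were Map2k2, a kinase of the ERK cascade, with 191 and 224 TPM in N/D and 241 and 267 TPM in N/D/S, Grb2, the adaptor to Ras, with 324 and 210 TPM in N/D and 229 and 143 TPM in N/D/S, and Hras, with 131 and 178 TPM in N/D and 139 and 268 TPM in N/D/S. These 3 were well above 1 TPM in each library, Map2k2 was higher in both N/D/S libraries than in both N/D libraries, and their log2 fold changes were 0.30, −0.53 and 0.33, with standard errors of 0.96, 0.98 and 0.99.

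For the IGF system, Igf2, the fetal ligand, was above Igf1 in each library in which either was listed above 0. Igf2 had 0 and 7.5 TPM in N/D and 4.91 and 42.6 TPM in N/D/S, in replicate order, with a log2 fold change of 2.46 (standard error 1.48, limma, Benjamini-Hochberg adjusted p = 1). Its highest value was in N/D/S replicate 2, where Igf1 had 0.0591 TPM. Insr, the insulin receptor, had 0 and 9.67 TPM in N/D and 19.4 and 3.42 TPM in N/D/S, and Igf2r, which clears IGF2, had 11 and 3.26 TPM in N/D and 6.48 and 1.66 TPM in N/D/S. In N/D replicate 1, Insr was thus listed at 0 while Igf1r and Igf2r were not.

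The binding proteins were led by Igfbp2, with 349 and 452 TPM in N/D and 229 and 321 TPM in N/D/S. Igfbp2 was lower in both N/D/S libraries than in both N/D libraries, with a log2 fold change of −0.55 (standard error 0.97, limma, Benjamini-Hochberg adjusted p = 1). Igfbp4 had 37.9 and 132 TPM in N/D and 84.2 and 95.7 TPM in N/D/S, and Igfbp5 had 0.00382 and 45.1 TPM in N/D and 6.88 and 12.2 TPM in N/D/S. For Igfbp4 and Igfbp5 the N/D libraries again lay on either side of the N/D/S libraries. The adaptors Dok4, Dok5 and Grb10 had log2 fold changes of −0.05, 0.47 and 0.80, with standard errors of 0.97, 0.96 and 1.20. The mRNA-binding proteins Igf2bp1, Igf2bp2 and Igf2bp3 had −0.31, 1.10 and −0.63, with standard errors of 1.17, 1.48 and 1.13.

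**Figure D3:**
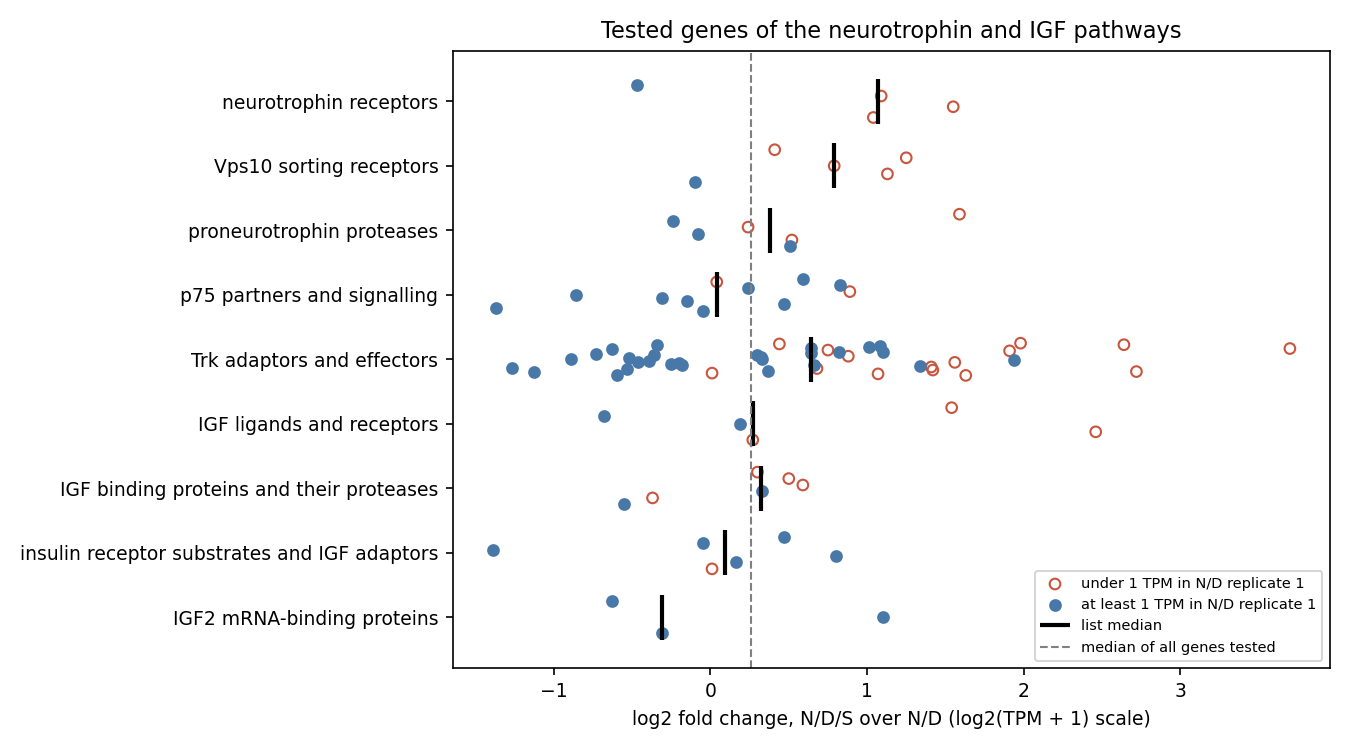
Log2 fold change (N/D/S relative to N/D) on the log2(TPM + 1) scale (horizontal axis) for the tested genes of each pathway list (vertical axis), with open red circles for genes under 1 TPM in N/D replicate 1, filled blue circles for the others, a black bar at the list median and a dashed line at the median of all genes tested (0.26). Of the 35 open circles 34 are positive and 1 is negative, and of the 54 filled circles 24 are positive and 30 negative. The low value in N/D replicate 1 enters the fold change, so the sign of the open circles follows in part from it.

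The sorted cells were checked against markers. All 12 markers of GABAergic forebrain neurons were tested and were above 1 TPM in each library, summing to 3593 to 5552 TPM. Most of that sum came from Tubb3 (1510 to 2770 TPM) and Stmn2 (606 to 1630 TPM), genes of neurons in general. Of the GABAergic genes of the list, Dlx1 ran from 97.9 to 520 TPM. The others, named after their values were seen, were Gad1 (27.4 to 97.8 TPM), Gad2 (42 to 169 TPM), the vesicular transporter gene Slc32a1 (1.55 to 13.9 TPM), Dlx5 (136 to 206 TPM), Dlx6 (12.1 to 32.5 TPM) and Lhx6 (30.8 to 115 TPM). Markers of neural progenitors summed to 205.7 to 354.9 TPM, led by Vim, Sox2 and Hes5. Of these 8 genes 2 had a positive and 6 a negative log2 fold change, with a median of −0.62 and 0 past the adjusted threshold. Hes5, a Notch target, was the only one of the 45 markers tested, of 62 listed, with an unadjusted p under 0.05 (0.0446, limma, Benjamini-Hochberg adjusted p = 1), and was listed at 0 in N/D replicate 1 with 22.6 TPM in N/D replicate 2 and 61.8 and 69.2 TPM in N/D/S. Microglia markers, among them Tmem119, Aif1 and Ptprc, summed to at most 3.197 TPM in any library.

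The sums of other lists differed between libraries of the same line. Markers of astrocytes and oligodendrocytes, cells that also carry TrkB, summed to 5.39 and 238.3 TPM in N/D replicate 1 and 2. In N/D/S replicate 1 and 2 the sums were 32.53 and 96.5 TPM. Of the 10 tested, 9 were under 1 TPM in N/D replicate 1, as were 5456 of the 12975 genes tested. Mbp and Olig1 were among those 9. In that library 3389 of the 12975 genes tested were at 0, among them 613 with at least 10 TPM in every other library. Ntrk2 and Ntrk3 were highest in N/D replicate 2, where the sum of the astrocyte and oligodendrocyte markers was highest. Between the N/D/S libraries Ntrk2 went the other way, with 20.0 TPM at the lower sum and 13.4 TPM at the higher, while Ntrk3 had 6.26 TPM at the lower sum and 7.51 TPM at the higher. Pluripotent cell markers, led by Dppa5a, Pou5f1 and Zfp42, summed to 0.247 and 185.7 TPM in N/D and 3.597 and 293.1 TPM in N/D/S, and Igf2 was highest in the library with the highest of these sums. Markers of neural crest and sensory neurons summed to 246.8 and 84.44 TPM in N/D and 419.8 and 74.87 TPM in N/D/S, mostly from Th, and Ngfr was above 7 TPM in the same 2 libraries as the higher sums. Foxd3, a neural crest factor, had 22.1 and 0.649 TPM in N/D and 9.58 and 0 TPM in N/D/S, while Prph had 20.5 and 3.97 TPM in N/D and 4.94 and 11.1 TPM in N/D/S. Markers of mesenchyme and endothelium summed to 38.8 and 36.92 TPM in N/D and 13.69 and 31.59 TPM in N/D/S, led by Pecam1, Col3a1 and Col1a1. The sum in N/D replicate 1 was nearly all Pecam1 (38.8 TPM), with Col3a1 at 0 and Col1a1 at 0.0354 TPM, whereas N/D replicate 2 had 2.41 TPM of Pecam1, 18.2 of Col3a1 and 6.64 of Col1a1. The part of any of these cells, or of the low values across N/D replicate 1, in the values of Ntrk2, Ntrk3, Ngfr or Igf2 was not tested, and fewer cells of a type cannot be told apart from less RNA in each of them.

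**Figure D4:**
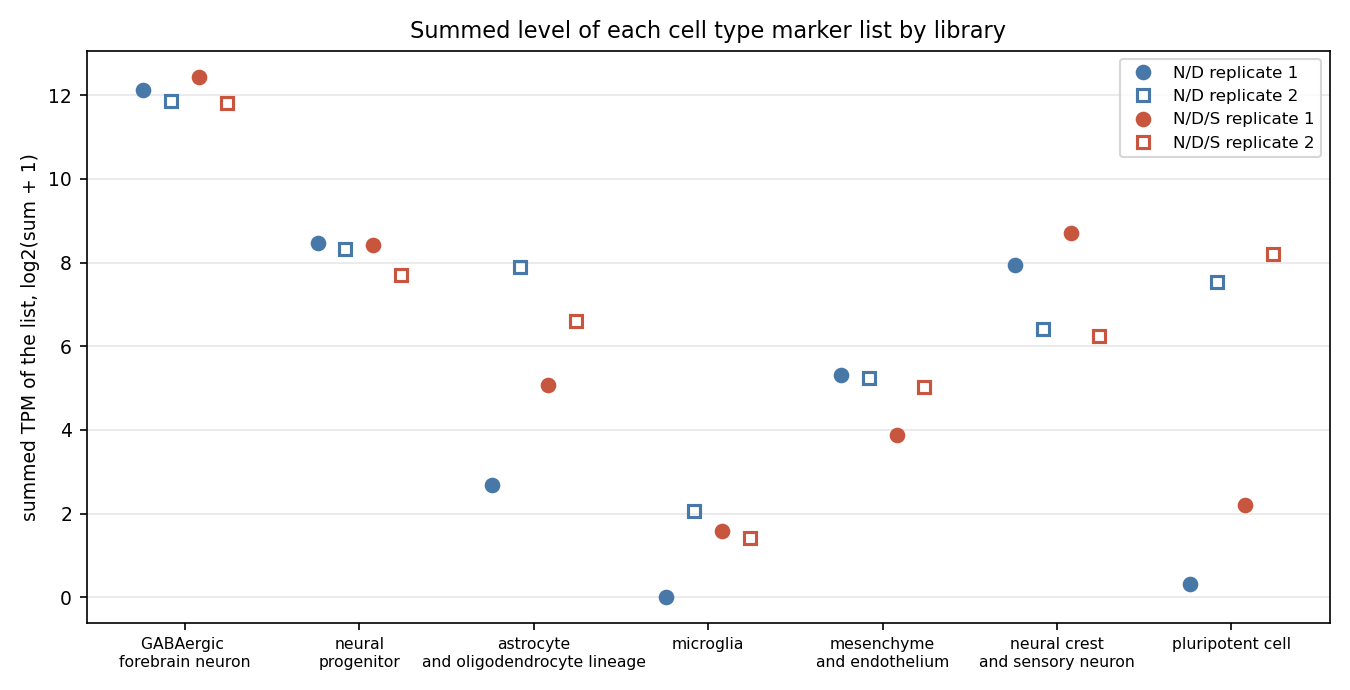
Summed TPM of each marker list, as log2(sum + 1) (vertical axis), for each list (horizontal axis), with N/D in blue, N/D/S in red, filled circles for replicate 1 and open squares for replicate 2. The sums of the GABAergic neuron list, mostly Tubb3 and Stmn2, run from 3593 to 5552 TPM and those of the pluripotent cell list from 0.247 to 293.1 TPM.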

How the data were processed

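Neurons of 2 N/D and 2 N/D/S libraries were profiled. Per the labels and the methods of the study, poly-A selected RNA was sequenced and pseudoaligned with kallisto 0.44.0, and the submitters' processing notes name GRCm38 and sleuth. The authors deposited TPM per gene symbol and library. How transcripts were combined into symbols, the strand setting and the annotation release are not given in the sources used here. Depth is unknown, so no counting interval is given.

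The files were joined on symbol (34968 shared by all libraries, with 24 symbols that had become dates left out). A gene was tested where 2 or more libraries reached 1 TPM (12975 genes), using limma 3.58.1 (R 4.3.3) on log2(TPM + 1), without covariates, with Benjamini-Hochberg adjustment and a threshold of 0.05. Lists were described by counts and medians. Named were the 8 members, up to 3 genes of each list with the highest mean TPM and the 2 genes nearest to each of the 3 most abundant members. Some genes that this rule names are not reported here. The members and lists were chosen with earlier results of these data known. Annotation was GENCODE M21 on GRCm38. Alternatives were pseudocounts of 0.5 and 0.1, other filters and scalings, a natural log scale, a variance trend, replicate number as a block and each library left out. Sleuth was not used, since it needs resampled kallisto estimates. Python 3.11.15, pandas 2.3.3 and matplotlib 3.10.9 served for tabulation and plots.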

Additional observations from a re-analysis of the deposited data

How the results depend on the processing

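The 14 alternatives gave 81 values for the 6 tested members, of which 67 had the same direction and call, 13 reversed and 1 passed the threshold. For these changes the cause was not tested. With quantile normalization the log2 fold change of Igf1 was −0.05, of Ntrk3 −0.01, of Igf1r −0.54 and of Ntrk2 0.38. With pseudocounts of 0.5 and 0.1 it was 1.93 and 2.61 for Ntrk2 (1.55 with 1), 1.45 and 2.12 for Ntrk3 (1.09 with 1) and 0.37 and 0.70 for Igf1 (0.27 with 1). With a library left out, Igf1 ranged from −0.43 to 0.96, Ntrk2 from −0.83 to 3.93, Ntrk3 from −0.61 to 2.80, Igf1r from −0.07 to 0.45, Ngfr from −1.30 to 0.37 and Sort1 from −1.19 to 0.99. The lowest adjusted p of a member in any alternative, from limma with Benjamini-Hochberg adjustment, was 0.00693, for Ntrk2 without N/D replicate 2.

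The numbers of genes past the threshold stayed at 0 higher and 0 lower except with the variance trend, at 5 higher and 1 lower, and without N/D replicate 2, so that they ranged from 0 to 2213 higher and 0 to 160 lower with a library left out. In the fit without N/D replicate 2 each member had the same standard error. The median log2 fold change of the pathway genes, 0.37 as reported, was −0.09 with at least 1 TPM in every library, −0.04 with quantile normalization and −0.24 to 1.09 with a library left out. That of the marker genes, −0.17 with all libraries and a pseudocount of 1, was 0.28 with a pseudocount of 0.1 and −0.70 to 0.98 with a library left out. For all genes tested, 0.26 as reported, it was −0.15 with at least 1 TPM in every library, −0.05 with quantile normalization and −0.29 to 0.88 with a library left out. With at least 1 TPM in every library, Ntrk2, Ntrk3 and Igf1 were not tested.

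Deviations of same-numbered libraries from their line's mean were nearly uncorrelated across the genes tested (0.0197). This value cannot decide whether same-numbered libraries were prepared together, since N/D replicate 1, which stood apart, enters it. Under a block for replicate number there were 0 calls, as without it, and the log2 fold change of Ntrk2 was 1.55 (standard error 1.58). How far depth limits the detection of the ligands was not assessed, since it is unknown.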
